A study of Mus musculus with 11 samples.

Results

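Double negative 3 (DN3) thymocytes were compared with early thymic precursors (ETP), the end and the start of the thymic path sampled in the study. DN3 and ETP had 2 arrays each, so the comparison used 4 of the 11 arrays of the series, over 19938 genes. Double negative 2 (DN2) cells, which lie between them, had 1 array without a replicate and served as a description of the order of change. The remaining arrays came from blood progenitors of the bone marrow, with 2 arrays in each of 3 populations, and entered the fit only to share the estimate of the spread. All populations came from C57BL/6J mice without a labelled treatment, mutation or transgene, and neither age nor the number of pooled animals is given in the sources used here. The descriptions of the thymic arrays name bone marrow, whereas the tissue field gives thymus, which is followed here. The cells were purified by gates that the labels do not state. Sorts of such cells often use Cd44, Kit, Il2ra, Il7r and Flt3, so their differences can be set by the sort itself.

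ETP are the most immature precursors of the thymus and keep the capacity to form myeloid, dendritic and natural killer cells. Notch signals from the thymic stroma drive them through DN2, where commitment to the T lineage takes place, to DN3, where the antigen receptor beta chain is rearranged by the recombinase and tested as a pre-T cell receptor together with the CD3 chains. Cells that fail this test, called beta selection, do not pass beyond DN3.

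Values are log2 intensities, so a difference of 1 is a doubling, and a gene was called where limma's test gave an adjusted p under 0.05 over all genes. Intensities flatten near background, so a fold between a bright and a dim level understates the ratio of transcripts, and no detection calls were used here. Of the 19938 genes, 1310 (6.57%) were called, 535 (2.68%) higher and 775 (3.89%) lower in DN3. At 2-fold or more the count was 594 (2.98%), with 213 (1.07%) higher and 381 (1.91%) lower. At 8-fold or more 25 genes were higher and 43 lower. The count of 1310 became 760 when DN3 replicate 1 was left out, 695 with DN3 replicate 2 left out, 805 with ETP replicate 1 and 849 with ETP replicate 2 left out, whereas the count at 2-fold or more stayed between 524 and 580. The 2 DN3 arrays did not overlap with the 2 ETP arrays in 9550 genes (47.9%), among them all 1310 called genes. The median difference over all genes was -0.0029. The DN3 arrays were more than 1 apart in 10 genes and the ETP arrays in 37. Across genes, which are not replicates, r was 0.9957 between the DN3 arrays, 0.9936 between the ETP arrays and 0.972 to 0.9735 between DN3 and ETP arrays. The labels number the replicates without saying that they came from separate animals, so the p-values may measure technical spread alone.

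**Figure D1:**
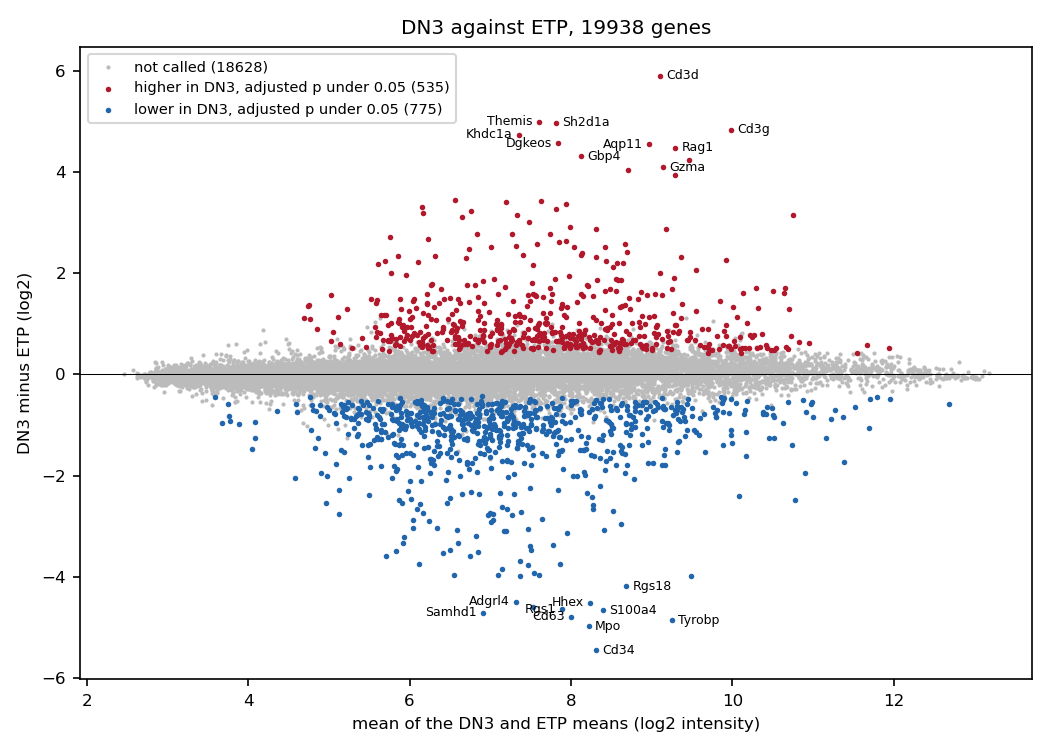
Difference between DN3 and ETP (log2, vertical axis) against the mean of both levels (log2 intensity, horizontal axis), 1 point per gene, with called genes in red (higher in DN3, 535) and blue (lower in DN3, 775). The 10 highest and 10 lowest genes of the naming rule are labelled, and Cd3d and Cd34 stand at the ends.

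The label of each population was set against markers of its own and of other cell types. All 9 measured DN3 markers were higher in DN3, and their summed level (log2 of the summed intensities) was 14.05 and 14.05 on the DN3 arrays, against 9.72 and 10.35 on the ETP arrays. Of 10 ETP markers 7 were lower in DN3, Notch1 was higher, and Cd24a and Hes1 were not called. Of 6 DN2 markers 4 were higher and 2 lower in DN3. They summed to 12.61 on the DN2 array, below the 13.02 and 12.98 of DN3 and above the 10.94 and 10.90 of ETP. Thy1, a surface protein of thymocytes, stood at 12.34 and 12.31 in DN3 and at 9.21 and 9.14 in ETP. Of 7 markers of DN4 and double positive cells, the stages after DN3, 3 were higher in DN3, namely Cd8b1, Cd28 and Cd2. The 7 summed to 11.015 and 10.987 in DN3 and to 10.252 and 10.399 in ETP. The coreceptors Cd4 (5.49 and 5.27 in DN3, 5.55 and 5.66 in ETP) and Cd8a (5.62 and 5.61 in DN3, 5.61 and 5.68 in ETP) were not called. Both stood near the low end of the markers in both populations. Markers of B cells (5 measured), macrophages (5), gamma delta T cells (2, Sox13 and Zbtb16) and endothelium (2) had no called member. The gamma and delta locus segments Trgv1 and Trdv2-2, which are not among these markers, were higher in DN3, as given at the end. The B cell markers summed to 8.46 and 8.45 in DN3 and to 8.42 and 8.42 in ETP, the macrophage markers to 7.59 and 7.50 in DN3 and to 7.50 and 7.47 in ETP, and the endothelial markers to 8.42 and 8.65 in DN3 and to 8.64 and 8.83 in ETP. On the DN2 array these sums were 8.465, 7.555 and 9.234, the last being above all DN3 and ETP arrays.

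Markers of myeloid cells moved with the comparison. All 5 were lower in DN3, with summed levels of 8.09 and 8.10 in DN3 against 11.10 and 11.13 in ETP. Dendritic cell markers summed to 8.16 and 8.20 in DN3 and to 10.12 and 10.33 in ETP, which rested on the MHC class II genes. Siglech (5.65 and 5.55 in DN3, 5.55 and 5.53 in ETP) and Xcr1 (4.48 and 4.16 in DN3, 4.40 and 4.42 in ETP), which mark dendritic cell subsets, were not called. Mast cell markers summed to 9.16 and 9.25 in DN3 and to 10.07 and 10.51 in ETP, and were highest on the DN2 array (11.18). No marker is at 0 on this scale, and the part of other cells in the sorted populations in the results below was not tested. In such samples fewer cells of a type and less RNA per cell cannot be told apart.

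The promoters of the CD3 and pre-T cell receptor genes are shown because these genes gave the rise described next. Mpo and Ctsg, 2 granule genes, were picked from the 6 of the 20 lowest named genes whose promoter held the letters GAGGAAG. That these 2 hold GAGGAAG was thus set by the choice, and is no contrast with the CD3 genes. Sequences are RefSeq's (GRCm38.p6), from 250 bases before to 50 after the gene start, 5′ to 3′ on the strand of the gene. Cd3d lies at chr9:44981536-44981835 on the plus strand, Cd3g at chr9:44980382-44980681 on the minus strand, Cd3e at chr9:45009562-45009861 on the minus strand, Cd247 at chr1:165788431-165788730 on the plus strand, Ptcra at chr17:46763663-46763962 on the minus strand, Mpo at chr11:87793534-87793833 on the plus strand and Ctsg at chr14:56102525-56102824 on the minus strand. Capitals mark, in all 7, the letters CAGGTG (or CACCTG, its reverse complement) and CAGCTG, which are E box sequences bound by E proteins, and GAGGAAG (or CTTCCTC), a sequence of the PU.1 type.
Cd3d: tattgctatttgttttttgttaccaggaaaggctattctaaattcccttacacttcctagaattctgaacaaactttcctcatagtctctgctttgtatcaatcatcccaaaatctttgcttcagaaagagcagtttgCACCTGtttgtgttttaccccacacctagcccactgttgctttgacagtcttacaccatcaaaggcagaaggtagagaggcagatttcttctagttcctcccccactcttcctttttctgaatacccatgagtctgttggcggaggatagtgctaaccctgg
Cd3g: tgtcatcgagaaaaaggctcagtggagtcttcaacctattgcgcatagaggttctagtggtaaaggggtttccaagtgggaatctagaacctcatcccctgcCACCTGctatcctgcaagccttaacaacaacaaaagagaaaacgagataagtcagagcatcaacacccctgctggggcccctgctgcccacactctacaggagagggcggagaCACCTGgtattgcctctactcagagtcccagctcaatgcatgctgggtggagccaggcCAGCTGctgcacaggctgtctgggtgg
Cd3e: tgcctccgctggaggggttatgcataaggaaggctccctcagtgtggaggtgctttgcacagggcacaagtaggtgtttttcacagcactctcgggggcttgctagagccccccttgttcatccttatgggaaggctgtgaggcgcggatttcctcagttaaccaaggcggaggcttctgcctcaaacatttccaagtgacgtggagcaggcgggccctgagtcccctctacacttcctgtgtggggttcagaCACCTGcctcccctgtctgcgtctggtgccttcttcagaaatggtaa
Cd247: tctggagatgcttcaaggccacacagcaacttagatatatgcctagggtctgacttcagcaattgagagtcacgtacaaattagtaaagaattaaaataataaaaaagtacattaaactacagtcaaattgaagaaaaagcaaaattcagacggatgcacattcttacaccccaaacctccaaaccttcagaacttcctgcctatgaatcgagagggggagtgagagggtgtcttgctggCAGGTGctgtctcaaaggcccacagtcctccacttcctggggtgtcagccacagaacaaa
Ptcra: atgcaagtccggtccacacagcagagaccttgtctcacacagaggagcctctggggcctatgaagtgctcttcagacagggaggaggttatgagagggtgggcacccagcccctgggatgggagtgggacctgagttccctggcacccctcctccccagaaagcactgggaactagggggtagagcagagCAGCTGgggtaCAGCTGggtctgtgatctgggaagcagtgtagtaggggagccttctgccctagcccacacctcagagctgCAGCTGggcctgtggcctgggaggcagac
Mpo: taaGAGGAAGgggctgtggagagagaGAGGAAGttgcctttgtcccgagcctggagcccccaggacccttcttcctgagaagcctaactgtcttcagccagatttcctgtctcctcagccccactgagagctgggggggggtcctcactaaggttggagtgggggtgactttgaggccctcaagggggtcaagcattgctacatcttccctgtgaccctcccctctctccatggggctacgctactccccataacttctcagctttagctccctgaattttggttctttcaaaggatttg
Ctsg: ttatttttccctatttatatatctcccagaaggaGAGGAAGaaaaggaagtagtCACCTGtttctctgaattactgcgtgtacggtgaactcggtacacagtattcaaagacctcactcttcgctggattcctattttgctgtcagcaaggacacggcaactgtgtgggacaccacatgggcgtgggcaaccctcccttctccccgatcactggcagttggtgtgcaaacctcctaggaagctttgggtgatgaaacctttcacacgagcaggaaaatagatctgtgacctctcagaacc
Cd3g held 3 of these E boxes, Ptcra 3, Cd3d 1, Cd3e 1 and Cd247 1, and none of GAGGAAG. Mpo held 2 copies of GAGGAAG and 0 E boxes, and Ctsg held 1 copy of GAGGAAG and 1 E box. A match describes the letters and is no evidence of binding.

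All 5 measured chains of the CD3 complex and the pre-T cell receptor were higher in DN3. Cd3d, the delta chain, had 12.07 and 12.04 in DN3, against 5.51 and 6.80 in ETP, and was the most increased gene of all (59.9-fold, 95% interval of the log2 difference from 5.23 to 6.58, adjusted p = 8.24e-07). Cd3g, the gamma chain, had 12.43 and 12.38 in DN3 and 6.68 and 8.45 in ETP (28.6-fold, adjusted p = 2.83e-05). Cd3e, the epsilon chain, had 9.64 and 9.59 in DN3 and 6.26 and 6.24 in ETP (10.3-fold, adjusted p = 3.55e-07). The DN3 arrays were tight in all 3 genes, whereas ETP replicate 2 stood above ETP replicate 1 by more than 1 in Cd3d and Cd3g. On the single DN2 array Cd3g had reached 11.21, while Cd3d had 8.10 and Cd3e 7.07. Ptcra, the pre-T cell receptor alpha chain that pairs with a new beta chain, had 8.01 and 7.76 in DN3 and 6.38 and 6.23 in ETP (3.00-fold, adjusted p = 0.000133), with 6.22 at DN2. Cd247, the zeta chain that carries most of the signalling motifs, had 7.89 and 8.01 in DN3 and 6.79 and 6.80 in ETP (2.22-fold, adjusted p = 0.000119). All 5 remained called without any 1 of the 4 arrays.

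The kinases and adaptors that carry the receptor's signal rose in part. Of 38 measured genes 17 were higher and 5 lower in DN3 (57.9% called, against 6.57% of all genes), with a median difference of 0.33. The number higher was 15 without ETP replicate 1, 14 without DN3 replicate 1, and 13 without DN3 replicate 2 or ETP replicate 2. Themis, an adaptor needed for thymocyte selection, had 10.12 and 10.08 in DN3, against 4.93 and 5.28 in ETP (31.8-fold, adjusted p = 1.32e-07). Sh2d1a (SAP), the adaptor of the SLAM family receptors, had 10.33 and 10.28 in DN3 and 4.86 and 5.80 in ETP (31.4-fold, adjusted p = 3.95e-07). As in all called genes, the populations did not overlap in either, and Themis had 8.21 and Sh2d1a 6.35 at DN2. Skap1, an adaptor linking the receptor to integrins, was 10.6-fold higher, Trat1, which stabilises the receptor complex, 5.70-fold, and Rasgrp1, which activates Ras, 5.58-fold. The scaffold Lat, already at 9.67 on both ETP arrays, had 11.34 and 11.32 in DN3 (3.15-fold), and Zap70, the kinase that binds phosphorylated zeta chains, had 6.34 and 6.51 in DN3 and 5.58 and 5.42 in ETP (1.90-fold, adjusted p = 0.00211). Prkcq, Grap2, Cblb and Dgka were 2.49-fold to 3.02-fold higher.

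The 5 genes of signalling that were lower in DN3 were Lax1, a negative regulator of lymphocyte signalling (7.01 and 7.24 in DN3, 8.51 and 8.51 in ETP, 2.61-fold lower), Rasgrp2 (2.16-fold lower), Themis2, Tespa1 and Malt1. Without DN3 replicate 1 the number lower was 3. Malt1 was also not called without DN3 replicate 2 or ETP replicate 2, nor Themis2 without ETP replicate 1.

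**Figure D2:**
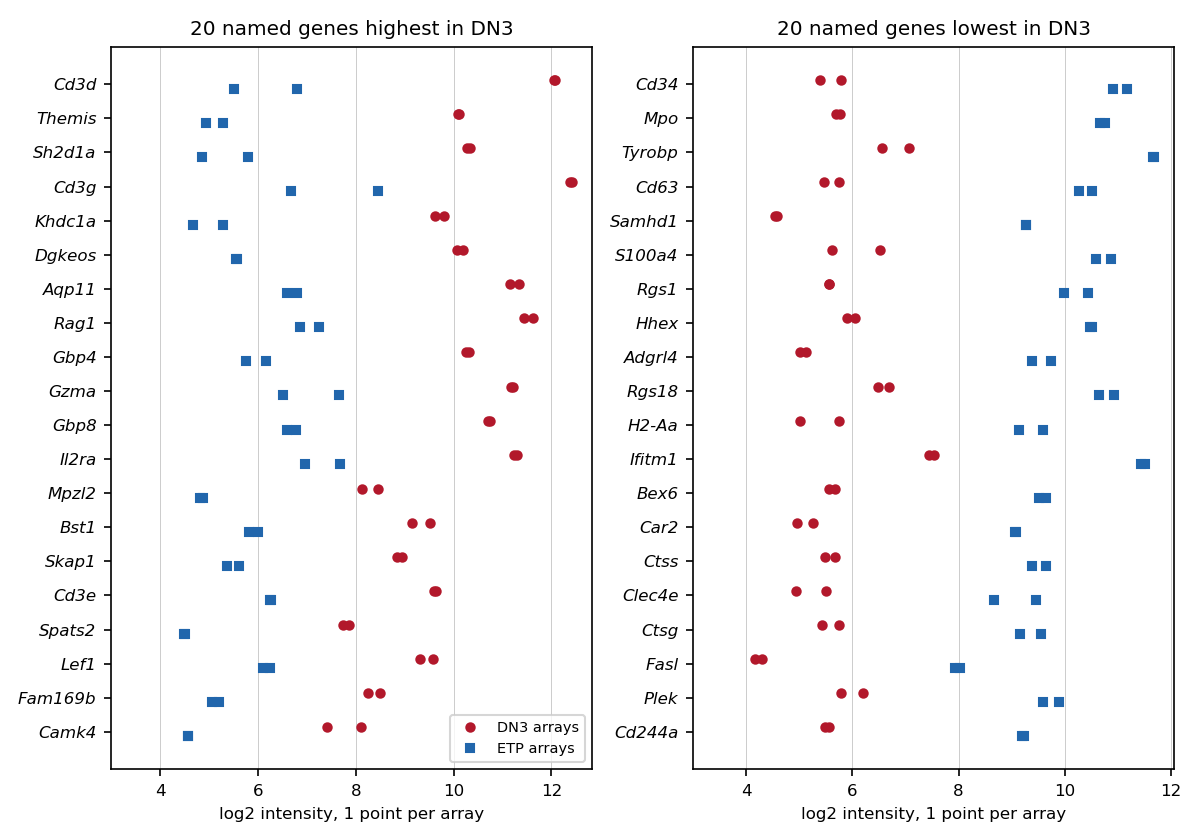
Log2 intensity (horizontal axis) of the 20 highest and the 20 lowest named genes, 1 point per array, with DN3 arrays as red circles and ETP arrays as blue squares on the line below. No gene overlaps between the populations, as the naming rule required, and the ETP points of Cd3d, Cd3g and Gzma lie more than 1 apart.

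The recombinase rose as well. Rag1, its catalytic subunit, had 11.45 and 11.63 in DN3, against 6.85 and 7.25 in ETP (22.4-fold, adjusted p = 1.07e-07). Rag2, its partner, had 9.09 and 9.08 in DN3 and 7.14 and 7.53 in ETP (3.36-fold, adjusted p = 4.07e-05). As in all called genes, the populations did not overlap in either, and DN2 stood at 8.21 for Rag1 and 7.86 for Rag2. Dntt, the polymerase that adds nucleotides at the joints, was not called and was already high, with 12.06 and 12.16 in DN3 and 11.66 and 11.88 in ETP. Of 6 recombination genes 3 were higher, the third being Iftap, the neighbour of Rag2, whose call was lost without DN3 replicate 1, DN3 replicate 2 or ETP replicate 1.

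Of 11 genes of end joining and break repair 2 were higher in DN3 (18.2% called, against 6.57% of all genes). Lig4, the ligase that seals the joints, had 9.89 and 9.93 in DN3, against 7.43 and 7.53 in ETP (5.37-fold, adjusted p = 2.55e-06), and 9.10 at DN2. Xrcc6, the Ku70 subunit, was 1.45-fold higher (adjusted p = 0.0424), a call lost without any 1 of the 4 arrays, and the list's count was 1 without DN3 replicate 1, DN3 replicate 2 or ETP replicate 1. The other 9 genes were not called.

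Genes of the Notch pathway were called in both directions. Of 36 measured receptors, targets and modifiers 5 were higher and 2 lower in DN3 (19.4% called, against 6.57% of all genes), with a median difference of -0.01. Among receptors, Notch1 had 8.19 and 8.46 in DN3 and 7.67 and 7.45 in ETP (1.70-fold, adjusted p = 0.0347), and Notch3 had 6.89 and 7.13 in DN3 and 6.34 and 6.32 in ETP (1.61-fold, adjusted p = 0.0131). The call of Notch1 was lost without any 1 of the 4 arrays and that of Notch3 without DN3 replicate 2, ETP replicate 1 or ETP replicate 2. The other genes called higher were the target genes Il2ra, Ptcra and Gata3. The number higher was 2 without DN3 replicate 2 or ETP replicate 2, and 3 without ETP replicate 1.

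Direct targets of Notch were called in part. Il2ra, which codes for the CD25 chain, had 11.30 and 11.23 in DN3 and 6.96 and 7.68 in ETP (15.4-fold, adjusted p = 1.14e-06), and 11.40 at DN2. Hes1, the repressor that Notch induces in thymocytes, had 8.44 and 8.36 in DN3 and 8.19 and 8.27 in ETP, and was not called (difference 0.17, 95% interval from -0.10 to 0.43). Dtx1, a Deltex protein, had 7.48 and 7.11 in DN3 and 6.78 and 6.74 in ETP (difference 0.53, adjusted p = 0.0643). Nrarp, a feedback inhibitor, had 5.58 and 5.69 in DN3 and 5.95 and 5.93 in ETP (difference -0.30, adjusted p = 0.183), and Myc had 10.85 and 10.77 in DN3 and 10.51 and 10.28 in ETP (difference 0.41, adjusted p = 0.149). Hes1, Dtx1, Nrarp and Myc thus missed the test, with Nrarp on the opposite side of 0 from the other 3. Dtx3 (1.79-fold) and Mfng (1.55-fold), a Fringe glycosyltransferase, were lower in DN3, calls that were both lost without DN3 replicate 1, DN3 replicate 2 or ETP replicate 1.

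Among 36 transcription factors of the T lineage 9 were higher and 1, Nfil3, was lower. The number higher fell without any 1 of the 4 arrays. Lef1, a member of the TCF and LEF family, had 9.31 and 9.57 in DN3, against 6.25 and 6.11 in ETP (9.60-fold, adjusted p = 2.94e-07). It had 6.59 at DN2. Ets1, a factor needed for beta selection, had 9.29 and 9.37 in DN3 and 6.95 and 6.91 in ETP (5.29-fold, adjusted p = 3.78e-06). Ets2 was 3.42-fold higher (7.64 and 7.55 in DN3, 5.81 and 5.84 in ETP), with 5.64 at DN2. For Lef1 and Ets2 the DN2 array thus lay near the ETP level, and for Ets1 it stood at 7.73. Bcl11b, the commitment factor, had 7.26 and 7.11 in DN3 and 6.16 and 6.13 in ETP (2.05-fold, adjusted p = 0.00264), with 6.97 at DN2. Gata3 had 7.85 and 8.19 in DN3 and 7.22 and 6.67 in ETP (2.10-fold, adjusted p = 0.0118), a call lost without DN3 replicate 2 or ETP replicate 2, as was that of Runx1 (1.52-fold). The call of Nfil3 was lost without any 1 of the 4 arrays.

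E proteins activate the recombinase and pre-T cell receptor genes, and Id proteins block them. Tcf12 (HEB) had 10.04 and 10.15 in DN3, against 8.25 and 8.59 in ETP (3.20-fold, adjusted p = 8.38e-05). Tcf3, the gene of the E2A proteins, was not called (7.30 and 7.30 in DN3, 7.15 and 7.13 in ETP). Id3 had 6.73 and 6.74 in DN3 and 5.50 and 5.35 in ETP (2.48-fold, adjusted p = 5.69e-05), whereas Id2, which favours innate fates, had 6.69 and 6.70 in DN3 and 7.46 and 7.82 in ETP (1.93-fold lower, adjusted p = 0.00952). Both inhibitors were thus called in opposite directions, but the call of Id2 was lost without DN3 replicate 1, DN3 replicate 2 or ETP replicate 2. These 3 were the called genes of 7 measured.

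Factors of the uncommitted progenitor fell in part. Of 32 measured 12 were lower in DN3, none was higher and 20 were not called, with a median difference of -0.32. Hhex, a homeobox factor, had 6.06 and 5.90 in DN3, against 10.47 and 10.51 in ETP (22.8-fold lower, adjusted p = 7.89e-08), and still 9.65 at DN2. Mef2c, a factor of the lymphoid progenitor, had 5.90 and 5.63 in DN3 and 9.11 and 9.37 in ETP (11.1-fold lower, adjusted p = 1.94e-07). Meis1, a Hox cofactor of stem cells, had 4.82 and 4.81 in DN3 and 7.78 and 7.94 in ETP (8.25-fold lower, adjusted p = 2.33e-06). These 3 showed no overlap, like all called genes, and DN2 stood at 7.49 for Mef2c and 5.75 for Meis1. Lmo2, an oncogene of T cell leukaemia, was 7.56-fold lower and Bcl11a 5.35-fold lower. Nfe2 had 6.75 and 7.30 in DN3 and 8.93 and 9.13 in ETP (4.02-fold lower), with 9.36 at DN2. Spi1, the gene of PU.1, had 5.83 and 5.83 in DN3 and 7.40 and 7.80 in ETP (3.42-fold lower, adjusted p = 0.00018), with 6.69 at DN2. Hoxa9, Erg and Lyl1 were 2.18-fold to 2.31-fold lower. Of the 12, the calls of Etv6, without any 1 of the 4 arrays, and of Mycn, without DN3 replicate 2, were lost. Gata2 and Cebpa, factors of mast and myeloid cells, were not called (Gata2 6.29 and 6.22 in DN3, 6.60 and 6.52 in ETP; Cebpa 6.90 and 6.25 in DN3, 6.75 and 6.87 in ETP).

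**Figure D3:**
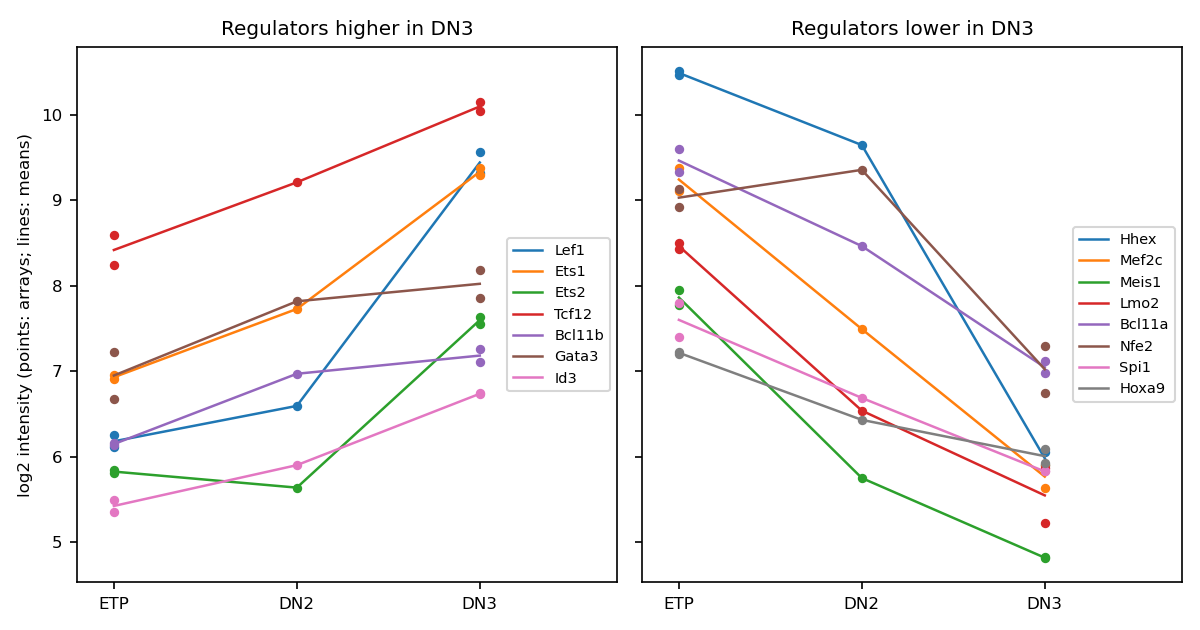
Log2 intensity (vertical axis) of 15 transcription regulators on the ETP, DN2 and DN3 arrays, with points for arrays and lines through the means. Lef1 and Ets2 lie near their ETP level at DN2, Nfe2 does too among the genes lower in DN3, and Meis1 lies nearer to its DN3 level.

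Stem cell associated genes gave 6 calls of 29 (20.7%, against 6.57% of all genes), with 4 lower. Cd34, a sialomucin of progenitors, had 5.39 and 5.78 in DN3, against 10.92 and 11.17 in ETP, and was the most decreased gene (43.8-fold lower, adjusted p = 5.73e-08), with 9.32 at DN2. Angpt1, the ligand of the receptor Tie2, had 8.79 and 8.98 in DN3 and 11.21 and 11.36 in ETP (5.27-fold lower). Meis1 and Kit were the other genes lower. Mllt3, an elongation cofactor, was 3.01-fold higher (9.82 and 9.85 in DN3, 8.07 and 8.43 in ETP), and Slamf1 2.54-fold higher. Of 26 Hox genes and cofactors Meis1 and Hoxa9 were lower and none was higher (7.7% called, against 6.57% of all genes).

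Receptors for cytokines changed in both directions. Of 46 measured 5 were higher and 10 lower in DN3. Flt3, the receptor of early lymphoid progenitors, had 5.19 and 4.99 in DN3, against 8.55 and 8.66 in ETP (11.4-fold lower, adjusted p = 1.94e-07), and had reached 5.23 at DN2. Kit, the stem cell factor receptor, had 7.20 and 6.84 in DN3 and 9.50 and 9.23 in ETP (5.08-fold lower, adjusted p = 6.1e-05), with 9.24 at DN2, so that DN2 stood at the DN3 level for Flt3 and at the ETP level for Kit. Il7r, the receptor chain for interleukin 7, had 9.68 and 9.81 in DN3 and 7.27 and 7.83 in ETP (4.58-fold higher, adjusted p = 1.68e-05), with 9.77 at DN2. Il18rap (9.11-fold) and Il18r1 (7.44-fold), the chains of the interleukin 18 receptor, were lower together, as were Il1r2 (4.92-fold), a decoy receptor, and Il4ra (2.52-fold). Il17rb and Ifngr1, the ligand-binding chain for interferon gamma, were higher (2.52-fold and 2.51-fold), as was Tgfbr1 (1.83-fold).

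Of 42 surface and costimulatory receptors of T cells 8 were higher and 15 lower. Cd28, the costimulatory receptor, had 8.99 and 8.84 in DN3, against 5.72 and 5.79 in ETP (8.93-fold, adjusted p = 0.000145), and Ctla4, its inhibitory relative, had 8.13 and 8.28 in DN3 and 5.01 and 5.18 in ETP (8.64-fold, adjusted p = 1.19e-06). DN2 stood near ETP in both genes, at 5.78 for Cd28 and 5.24 for Ctla4. Thy1 was 8.88-fold, Ly6d 7.38-fold and Slamf6, a SLAM family receptor that signals through Sh2d1a, 6.82-fold higher. Lower were Cd244a, another SLAM family receptor (5.56 and 5.49 in DN3, 9.19 and 9.22 in ETP, 12.8-fold), Cd52 (7.74-fold), Cd7 (7.25-fold), Cd44 (6.71-fold) and Cd53 (3.88-fold). Fasl, the death ligand of cytotoxic cells, had 4.30 and 4.17 in DN3 and 7.94 and 8.03 in ETP (13.5-fold lower, adjusted p = 1.94e-07). The calls of Cd69, Btla, Cd27, Lag3 and Ly9, all lower, were each lost without at least 3 of the arrays left out in turn.

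Genes of the list for later thymocytes and mature T cells were in part higher at DN3. Of 21 measured 7 were higher and none lower, but 1 of the 7, Rag1, is also a DN3 marker. Besides Themis, Rag1 and Cd28, Dgkeos had 10.06 and 10.18 in DN3, against 5.57 and 5.55 in ETP (23.7-fold, adjusted p = 5.73e-08), with 6.46 at DN2. Its neighbour Dgke, a diacylglycerol kinase, had 9.21 and 9.32 in DN3 and 6.52 and 6.71 in ETP (6.25-fold). Arpp21, a phosphoprotein, was 4.995-fold higher (10.48 and 10.58 in DN3, 8.21 and 8.21 in ETP). Cd8b1 was 1.91-fold higher (6.50 and 6.26 in DN3, 5.33 and 5.55 in ETP) whereas Cd8a and Cd4 were not called. The call of Cd2 (1.80-fold) was lost without DN3 replicate 1, DN3 replicate 2 or ETP replicate 1. Of 11 genes of gamma delta and innate-like T cells Sh2d1a was higher (9.1% called, against 6.57% of all genes). The defining factors Sox13 (7.26 and 7.06 in DN3, 7.36 and 7.11 in ETP) and Zbtb16 were not called.

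The largest share of calls among the 43 lists that fell was that of myeloid genes. Of 44 measured 26 were lower in DN3 and none was higher, against 3.89% lower over all genes, and the median difference was -0.83. The number lower fell without any 1 of the 4 arrays. The summed myeloid markers fell with these genes, as given above. Mpo, the peroxidase of neutrophil granules, had 5.78 and 5.68 in DN3, against 10.76 and 10.67 in ETP (31.6-fold lower, adjusted p = 3.55e-07), and 8.89 at DN2. Tyrobp, the signalling adaptor DAP12, had 6.56 and 7.08 in DN3 and 11.67 and 11.68 in ETP (28.95-fold lower, adjusted p = 1.32e-07), and still 11.24 at DN2. Clec4e, a C-type lectin receptor, was 14.4-fold lower and had 8.66 at DN2, next to the 8.68 of ETP replicate 1. Ctsg, a granule protease, had 5.43 and 5.74 in DN3 and 9.16 and 9.56 in ETP (13.7-fold lower). Ms4a3 had 4.93 and 4.92 in DN3 and 8.05 and 8.49 in ETP (10.1-fold lower), with 4.99 at DN2. The DN2 array thus stood near ETP for Tyrobp and Clec4e, between for Mpo and Ctsg (7.40), and near DN3 for Ms4a3. Cd33 (8.82-fold), S100a8 (3.92-fold), Prtn3 (3.17-fold), Lyz2 (2.69-fold), Elane (2.56-fold) and Csf1r (2.08-fold) were also lower. Of 14 macrophage genes 1, Cd163, was lower (7.1% called, against 6.57% of all genes). The complement genes C1qa, C1qb and C1qc were not called.

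Mast cell genes gave 6 lower of 18. Mcpt8, a basophil protease, had 4.94 and 4.95 in DN3, against 6.80 and 7.32 in ETP (4.32-fold lower, adjusted p = 0.00176). Mcpt1 had 3.84 and 3.63 in DN3 and 5.92 and 7.08 in ETP (6.81-fold lower), and Mcpt2 was 5.79-fold lower. ETP replicate 2 stood above ETP replicate 1 by more than 1 in both proteases, and DN2 had 3.82 and 3.71, near the DN3 level. Cpa3, a mast cell carboxypeptidase, had 8.83 and 8.95 in DN3 and 9.76 and 10.22 in ETP (2.14-fold lower), with the highest of the 5 values, 11.06, at DN2. Its call was lost without DN3 replicate 1, DN3 replicate 2 or ETP replicate 2. The receptor genes Ms4a2 and Fcer1a were not called, with 3.99 and 4.03 in DN3 and 4.37 and 4.72 in ETP for Ms4a2.

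Of 24 genes of dendritic cells and MHC class II 10 were lower and 1, Ccr9, was higher. The number lower fell without any 1 of the 4 arrays. H2-Aa, an alpha chain of MHC class II, had 5.01 and 5.75 in DN3, against 9.14 and 9.59 in ETP (15.9-fold lower, adjusted p = 4.15e-06), and 6.02 at DN2. H2-Ob, a chain that modulates peptide loading, had 5.77 and 6.10 in DN3 and 9.05 and 8.92 in ETP (8.28-fold lower), H2-Ab1 was 3.02-fold, the invariant chain Cd74 3.10-fold and H2-Eb1 2.45-fold lower. Cd74 stood at 4.98 and 5.11 in DN3 and at 6.63 and 6.72 in ETP. For H2-Ab1 (7.15), Cd74 (5.26) and H2-Eb1 (6.18) the DN2 array lay near DN3. Ccr9, a chemokine receptor of thymus homing, had 7.40 and 7.84 in DN3 and 6.33 and 6.97 in ETP (1.96-fold, adjusted p = 0.0168), and 4.87 at DN2, below the 4 DN3 and ETP arrays. Its call was lost without DN3 replicate 2 or ETP replicate 1.

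Natural killer and innate lymphoid genes gave 12 lower and 3 higher of 37. The number lower fell without any 1 of the 4 arrays. Klrd1, the CD94 receptor chain, had 4.49 and 4.14 in DN3, against 7.34 and 7.73 in ETP (9.33-fold lower, adjusted p = 1.43e-05), and 4.66 at DN2. Cst7, a cystatin of cytotoxic granules, was 8.47-fold lower (6.88 and 6.84 in DN3, 9.77 and 10.12 in ETP) but 10.20 at DN2, and Nkg7, a granule membrane protein, 2.88-fold lower. Gzma, a granzyme, went the other way, with 11.16 and 11.21 in DN3 and 6.52 and 7.66 in ETP (17.1-fold higher, adjusted p = 1.23e-05), and 9.53 at DN2. Gzmb, by contrast, was lower, with 5.06 and 4.97 in DN3 and 5.83 and 6.73 in ETP (2.41-fold), a call lost without DN3 replicate 1, DN3 replicate 2 or ETP replicate 2. The defining markers Ncr1 (4.22 and 3.92 in DN3, 4.08 and 4.40 in ETP), Klrb1c and Eomes were not called. The summed natural killer markers, 11.22 and 11.25 in DN3 against 8.32 and 8.90 in ETP, rested on Gzma.

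Genes of the B lineage moved in both directions, with 3 higher and 3 lower of 25 (24.0% called, against 6.57% of all genes). Higher were Rag1, Il7r and Bst1, a surface enzyme of marrow stroma and lymphocytes (9.16 and 9.52 in DN3, 5.82 and 6.00 in ETP, 10.8-fold). Lower were Btk, a kinase of B and myeloid cells (5.74 and 5.54 in DN3, 8.60 and 8.89 in ETP, 8.58-fold), Cd72 (6.76-fold) and Syk (1.65-fold, not called without DN3 replicate 1). Btk had 8.52 and Cd72 8.33 at DN2, near ETP. The defining factors Pax5 and Ebf1 were not called and had 6.00 and 5.78 (Pax5) and 4.45 and 4.21 (Ebf1) in DN3.

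Erythroid and megakaryocyte genes gave 3 lower of 20 (15.0% called, against 6.57% of all genes). Car2, a carbonic anhydrase, had 5.26 and 4.96 in DN3, against 9.08 and 9.06 in ETP (15.5-fold lower, adjusted p = 1.2e-07), and Car1 was 3.66-fold lower. F2rl2, a thrombin receptor, was 1.66-fold lower, a call lost without any 1 of the 4 arrays. Klf1, the erythroid factor, was not called, with 5.53 and 5.18 in DN3 and 5.50 and 5.53 in ETP. Of 24 genes of thymic epithelium, stroma and endothelium Pdgfrb was lower and Epcam higher (8.3% called, against 6.57% of all genes). Epcam, an adhesion protein of epithelia, had 7.20 and 7.23 in DN3 and 4.99 and 4.99 in ETP (4.67-fold, adjusted p = 3.62e-07). The epithelial genes Krt5, Krt8 and Psmb11 were not called, nor were Col1a1 and Pdgfra of stroma.

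**Figure D4:**
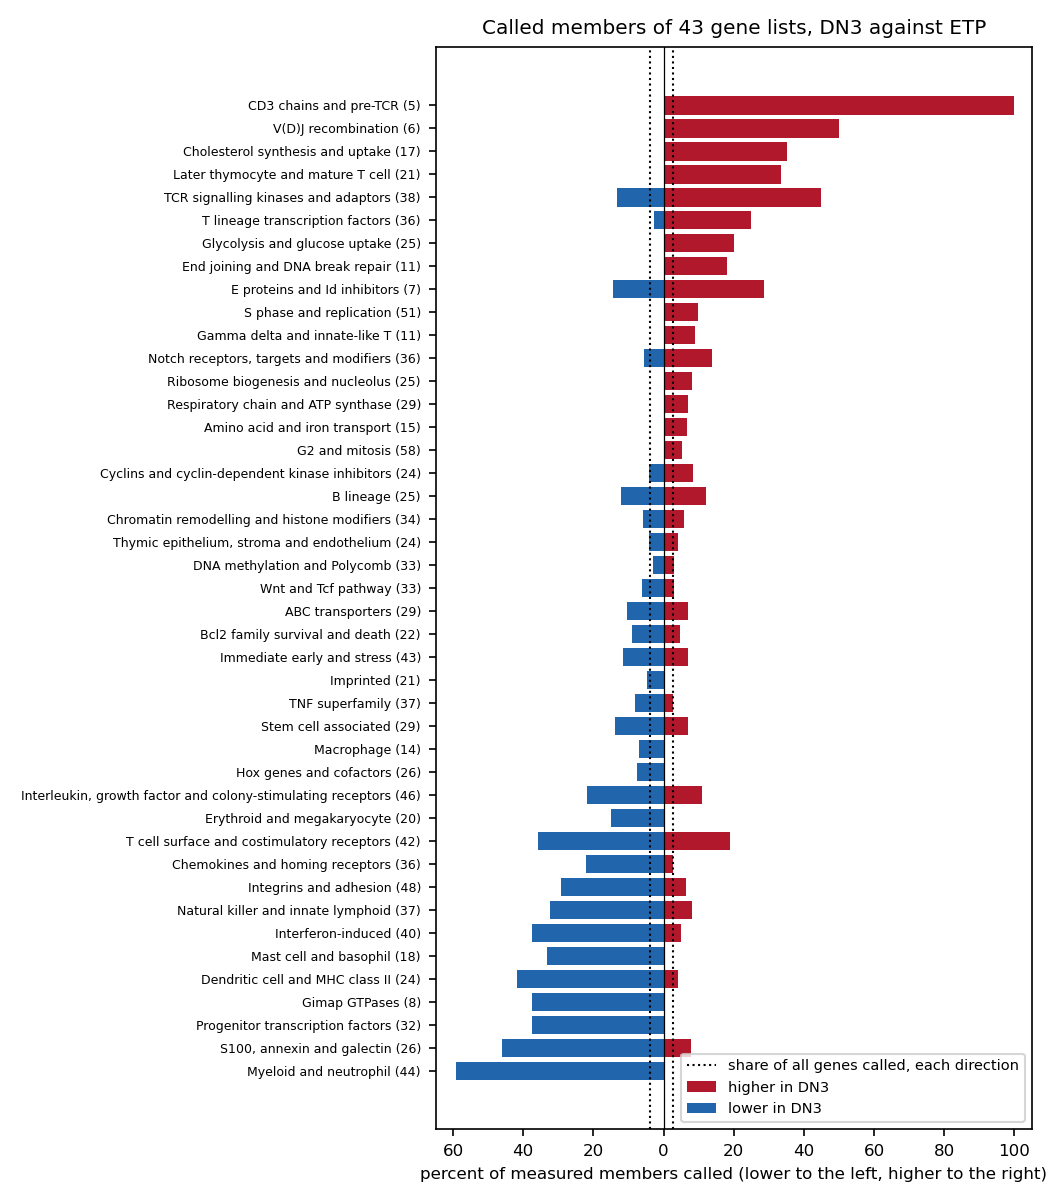
Share of the measured members of 43 gene lists that were called higher (red, to the right) or lower (blue, to the left) in DN3, in percent, with the number measured in brackets and dotted lines at the shares over all genes (2.68% and 3.89%). Myeloid genes (26 of 44 lower) and the 5 CD3 and pre-TCR genes (all higher) stand at the ends.

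Interferon-induced genes that were called lay mainly on the lower side. Of 40 measured 15 were lower, 2 higher and 23 not called in DN3 (10 lower without DN3 replicate 2 or ETP replicate 2), with a median difference of -0.50. Samhd1, a nuclease that lowers the nucleotide pool, had 4.53 and 4.58 in DN3, against 9.27 and 9.26 in ETP (26.2-fold lower, adjusted p = 1.07e-07), and 8.22 at DN2. Ifitm1, a membrane protein, had 7.44 and 7.54 in DN3 and 11.44 and 11.50 in ETP (15.8-fold lower, adjusted p = 5.73e-08), and 11.26 at DN2. Ifitm3 (5.62-fold) and Ifitm2 (2.20-fold), its neighbours, were lower too. The 2 genes that were higher both code for guanylate-binding proteins: Gbp4 had 10.26 and 10.31 in DN3 and 5.77 and 6.17 in ETP (19.9-fold, adjusted p = 5.43e-07), and Gbp9 was 7.58-fold higher. Gbp8, outside the list, had 10.69 and 10.75 in DN3 and 6.78 and 6.60 in ETP (16.4-fold). Probe sets of such similar genes can share sequence, so their signals may not be independent.

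S100 proteins, annexins and galectins, which bind calcium or sugars, gave 12 lower and 2 higher of 26. S100a4 had 5.62 and 6.52 in DN3, against 10.60 and 10.87 in ETP (25.3-fold lower, adjusted p = 9.39e-07), S100a6 was 12.0-fold lower and Anxa1 11.6-fold lower. Anxa2 went the other way, with 9.36 and 9.24 in DN3 and 6.63 and 7.24 in ETP (5.16-fold higher, adjusted p = 0.000216), and 9.08 at DN2. Its partner S100a10 had 9.88 and 9.89 in DN3 and 11.13 and 11.16 in ETP (2.39-fold lower). Lgals1 was the second gene higher (1.45-fold), a call lost without any 1 of the 4 arrays.

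Adhesion and homing genes that were called lay mainly on the lower side. Of 48 integrin and adhesion genes 14 were lower, 3 higher and 31 not called, and 9 were lower without DN3 replicate 2 or ETP replicate 1. Cd63, a tetraspanin of granules and endosomes, had 5.47 and 5.74 in DN3, against 10.51 and 10.27 in ETP (27.6-fold lower, adjusted p = 9.62e-07), Cd81 was 3.15-fold, Cd93 2.89-fold, Itga9 2.58-fold and Cd9 2.23-fold lower. Cdh1, E-cadherin, had 6.07 and 6.01 in DN3 and 5.12 and 5.09 in ETP (1.92-fold higher, adjusted p = 0.00183). Itga6 and Itgae were the others higher, and the number higher was 1 without DN3 replicate 2 or ETP replicate 1. Of 36 chemokine and homing genes 27 were not called and 8 were lower, among them P2ry14 (3.87-fold), a nucleotide sugar receptor, Ccr2 (2.74-fold) and Sele (2.19-fold). Leaving out an array gave 4 (DN3 replicate 1), 3 (DN3 replicate 2), 5 (ETP replicate 1) and 3 (ETP replicate 2). Ccr9 was the single gene higher, and not without DN3 replicate 2 or ETP replicate 1.

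Survival and feedback genes changed singly. Bcl2, the survival factor, had 9.31 and 9.18 in DN3, against 7.43 and 7.75 in ETP (3.14-fold higher, adjusted p = 0.000266), and 8.84 at DN2, whereas Bcl2l1 and Bcl2l11, the genes of Bcl-xL and Bim, were not called. Bcl2a1c (4.15-fold) and Bnip3 (2.13-fold, not called without DN3 replicate 1) were lower, the other 2 calls of 22 (13.6% called, against 6.57% of all genes). Of 8 Gimap GTPases 3 (Gimap4, Gimap6, Gimap7) were 2.15-fold to 2.28-fold lower and all 8 differences were negative; the call of Gimap4 was lost without DN3 replicate 2 or ETP replicate 1. Among 43 stress and immediate early genes 3 were higher and 5 lower (18.6% called), and 3 were lower without ETP replicate 2. Rel, an NF-kappa-B subunit, was 4.64-fold, Dusp6, a phosphatase of ERK, 4.004-fold and Ier3 3.79-fold lower. Btg2, an inhibitor of proliferation, had 9.65 and 9.71 in DN3 and 7.84 and 8.26 in ETP (3.10-fold higher), and Dusp10 was 2.72-fold higher. Of 37 TNF superfamily genes Fasl, Ltb and Cd27 were lower and Tnfrsf8 was higher (10.8% called, against 6.57% of all genes). The call of Tnfrsf8 (1.65-fold) was lost without DN3 replicate 1, DN3 replicate 2 or ETP replicate 2.

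Cell cycle genes differed little each, though most lay on the same side. Of 51 genes of S phase 49 had a positive difference, with a median of 0.29 against -0.0029 over all genes. Of the 51, 5 were called higher and none lower (9.8% called, against 6.57% of all genes). Rrm2, a subunit of ribonucleotide reductase, had 9.61 and 9.76 in DN3, against 8.77 and 8.92 in ETP (1.79-fold, adjusted p = 0.00115), and 9.67 at DN2. The number called was 1 without DN3 replicate 1 or DN3 replicate 2 and 2 without ETP replicate 1. Of 58 genes of G2 and mitosis 48 had a positive difference (median 0.17), and 3 were called higher (5.2%), Ncaph, Spc24 and Ccna2. None of the 58 was called without DN3 replicate 1, DN3 replicate 2 or ETP replicate 1. Mki67, a marker of cycling cells, had 10.20 and 10.23 in DN3 and 9.75 and 9.94 in ETP and was not called. Among 24 cyclins and inhibitors Btg2 and Cdkn2c were higher and Ccnd1 was lower (1.91-fold), so that 12.5% were called, against 6.57% of all genes. The calls of Cdkn2c, without any 1 of the 4 arrays, and of Ccnd1, without DN3 replicate 1, ETP replicate 1 or ETP replicate 2, were lost.

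Cholesterol synthesis genes lay on 1 side throughout. All 17 differences were positive, with a median of 0.61 against -0.0029 over all genes. Of the 17, 6 were called higher (35.3% called, against 6.57% of all genes). The lists of S phase, mitosis, the respiratory chain and ribosome biogenesis also lay mostly on the positive side. Idi1, an isomerase of the pathway, had 9.36 and 9.68 in DN3, against 7.02 and 8.27 in ETP (3.66-fold, adjusted p = 0.00473). Lss, the lanosterol synthase, had 6.25 and 6.08 in DN3 and 5.40 and 5.37 in ETP (1.71-fold, adjusted p = 0.00219). The ETP arrays were more than 1 apart for Idi1 and close together for Lss. Fdft1, Hmgcs1, Sqle and Cyp51 were 1.85-fold to 2.20-fold higher. With an array left out, 4 (DN3 replicate 1), 1 (DN3 replicate 2), 2 (ETP replicate 1) and 6 (ETP replicate 2) were called.

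Of 25 glycolysis genes 5 were higher and none lower. Slc16a1, a lactate transporter, had 8.19 and 8.50 in DN3, against 6.75 and 6.84 in ETP (2.93-fold, adjusted p = 0.000533). Ldhb (2.55-fold) and Pfkp (2.43-fold) were called under every omission of an array, and Ldha and Hif1a were not, so that the number was 3 without DN3 replicate 1, DN3 replicate 2 or ETP replicate 1. Respiratory chain genes had 26 of 29 differences positive with a median of 0.14, and 6.9% were called. Ribosome biogenesis genes had 22 of 25 positive with a median of 0.17, and 8.0% were called. Over all genes the median was -0.0029, and 6.57% were called. The 2 calls in each of the 2 lists, Sdhb and Cyc1, and Tcof1 and Pes1, were small (1.40-fold to 1.58-fold). Of these 4, Cyc1, Tcof1 and Pes1 were not called without any 1 of the 4 arrays, nor was Sdhb without DN3 replicate 1, DN3 replicate 2 or ETP replicate 1. Of 15 amino acid and iron transporters Slc11a2 was higher (2.10-fold), so that 6.7% were called.

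Regulators of chromatin were called in both directions. Of 34 remodelling and histone modifying genes 2 were higher and 2 lower (11.8% called), and of 33 DNA methylation and Polycomb genes 1 was higher and 1 lower (6.1% called), against 6.57% of all genes. Hdac4, a histone deacetylase, had 8.51 and 8.96 in DN3, against 7.02 and 6.70 in ETP (3.68-fold, adjusted p = 5.86e-05), with 7.10 at DN2. Hmga2, an architectural factor of fetal stem cells, had 6.21 and 6.37 in DN3 and 8.40 and 7.60 in ETP (3.28-fold lower), and Arid5b was 2.44-fold lower. The calls of Smarca4 (1.98-fold higher) and Dnmt3b (1.66-fold lower) were lost without any 1 of the 4 arrays, and that of Mtf2 (1.51-fold higher) without DN3 replicate 2 or ETP replicate 1. Of 33 genes of the Wnt pathway Lef1 was higher and Fzd6 (1.95-fold) and Tcf7l2 (1.92-fold) were lower (9.1% called). The call of Tcf7l2 was lost without DN3 replicate 1 or ETP replicate 1. Of 21 imprinted genes 1 (4.8%), Ppp1r9a, was lower (1.95-fold). Of 29 ABC transporters Abcg3 (6.00-fold) and Abcc5 were higher and Abcb1b (3.10-fold), a drug exporter, Abca1 and Abcb1a were lower (17.2% called). The calls of Abcc5, without any 1 of the 4 arrays, and of Abcb1a, without DN3 replicate 2, ETP replicate 1 or ETP replicate 2, were lost.

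Other genes at the ends of the comparison had no place in a list. Among the highest, Khdc1a had 9.81 and 9.63 in DN3, against 4.68 and 5.29 in ETP (26.7-fold), and Aqp11, a water channel of intracellular membranes, had 11.15 and 11.34 in DN3 and 6.59 and 6.80 in ETP (23.5-fold). Camk4, a kinase driven by calcium, had 7.42 and 8.11 in DN3 and 4.57 and 4.58 in ETP (9.13-fold), and Spats2 was 9.90-fold higher. At the other end, Rgs1, a regulator of G protein signals, had 5.57 and 5.56 in DN3 and 9.98 and 10.44 in ETP (25.05-fold lower), and Rgs18, of the same family, was 18.25-fold lower. Adgrl4, an adhesion receptor known from endothelium, had 5.13 and 5.02 in DN3 and 9.39 and 9.75 in ETP (22.5-fold lower), with 5.69 at DN2. Plek, a substrate of protein kinase C, and Bex6 were 13.4-fold and 15.6-fold lower. The naming rule required that the populations did not overlap, so this was fixed in advance. None of these 9 genes lost its call without any 1 of the arrays.

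The single DN2 array was set on a scale from the ETP mean (0%) to the DN3 mean (100%), as a description without a test. For the 213 genes called higher at 2-fold or more the median position was 36.0% (quartiles 16.1% and 60.2%), with 79 genes under 25%, 106 from 25% to 75% and 28 over 75%. For the 381 genes called lower it was 40.9% (quartiles 19.3% and 64.9%), with 123, 186 and 72 genes in the same ranges. Among the highest genes Il2ra stood at 103.4%, Fam169b at 84.5% and Cd3g at 75.4%, while Camk4 stood at 2.1%, Spats2 at 3.4% and Lef1 at 12.7%. Among the lowest, Adgrl4 stood at 86.5%, H2-Aa at 84.0% and Ctss, a protease of antigen processing, at 74.6%, while Cd244a stood at 3.9%, Ifitm1 at 5.3% and Tyrobp at 8.9%. The 3 neighbours Cd3g, Cd3d and Cd3e were at 75.4%, 33.0% and 24.5%.

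**Figure D5:**
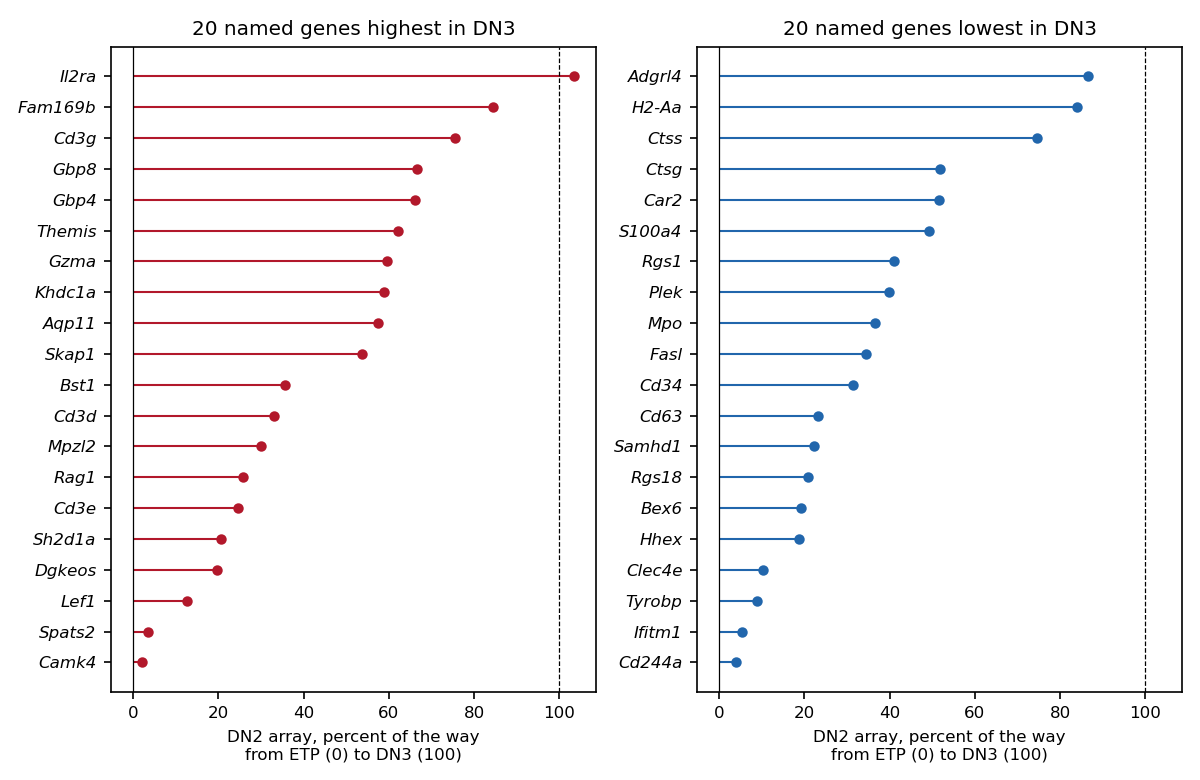
Position of the single DN2 array between the ETP mean (0) and the DN3 mean (100) in percent (horizontal axis) for the 20 highest and 20 lowest named genes, 1 point per gene. Il2ra lies past 100 (103.4%) and Camk4 and Cd244a lie near 0 (2.1% and 3.9%).

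Genes next to a called gene were called in its direction above the share of all genes, though most of them were not. In the order of the RefSeq table, 10.3% of genes next to a gene called higher were called higher themselves (2.68% of all genes), 13.71% of genes next to a gene called lower were lower (3.89% of all genes), and 2.59% of genes next to a lower gene were higher. There were 27 runs of at least 3 neighbours called in the same direction, 12 higher and 15 lower. On chromosome 9 Cd3g, Cd3d, Cd3e and Mpzl2, an adhesion protein of the thymus, were 10.3-fold or more higher, and on chromosome 5 the run held Abcg3, Gbp8, Gbp9, Gbp4 and Gbp11. Iftap, Rag2 and Rag1 formed a run on chromosome 2 and Dgke, Dgkeos and Gm525 on chromosome 11. Lower runs held H2-Ob, H2-Ab1, H2-Aa and H2-Eb1 on chromosome 17, Ifitm2, Ifitm1 and Ifitm3 on chromosome 7, S100a4, S100a5 and S100a6 on chromosome 3, Cd244a, Ly9, Slamf7 and Cd48 on chromosome 1, and Gimap4, Gimap6 and Gimap7 on chromosome 6. Neighbours in several of these runs are members of 1 family, whose probe sets can share sequence. The longest run held 6 genes on chromosome 7, among them Olfm5 (5.95 and 6.11 in DN3, 8.80 and 8.68 in ETP, 6.56-fold lower) and Trim6.

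Promoters of the called genes were compared with all promoters in the RefSeq table, which held 15614 of the 19938 genes, 164 of the 213 called higher at 2-fold or more and 297 of the 381 called lower. CAGGTG, searched on both strands, was present in 41 of 164 promoters of the higher genes and 47 of 297 of the lower (15.8%), against 3002 of all 15614 (19.2%). CAGCTG, which is its own reverse complement, was present in 17.7% of the higher, 20.2% of the lower and 15.9% of all. GAGGAAG, which shares the letters GGAA with the ETS and RBPJ sequences searched, was present in 25 of 164 promoters of the higher genes (15.2%) and 72 of 297 of the lower (24.2%), against 2023 of all 15614. TGGGAA, the RBPJ letters, was present in 17.1%, 25.3% and 24.0% and TGTGGT, the RUNX letters, in 23 of the 164 higher, 60 of the 297 lower and 2227 of all 15614 promoters. CTTTGA, the TCF letters, was present in 10.4% of the higher, 15.2% of the lower and 14.5% of all. For CCGGAA, the ETS letters, the shares were 11.6%, 13.8% and 20.1%. AGATAA, the GATA letters, gave 7.3%, 10.4% and 9.5%. TTGCNNAA, the CEBP letters with any base at N, gave 9.1%, 10.8% and 9.7%. Of the 20 highest named genes 12 had a promoter in the table, 6 with CAGGTG and 0 with GAGGAAG, and of the 20 lowest 16 had one, 1 with CAGGTG and 6 with GAGGAAG, which include Mpo and Ctsg shown above. The sets were not alike in base composition: the median GC content was 61.7% for the higher genes, 54.0% for the lower and 57.7% for all, and the median number of CG dinucleotides was 19.5, 8.0 and 15.0. The shares of motifs move with base composition, and the part of composition in them was not tested.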

How the data were processed

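Trizol RNA, labelled by an Affymetrix whole-transcript kit, was measured on 11 arrays. The authors deposited log2 intensities made with RMA, per the submitters' processing notes, which corrects background, normalizes between arrays and summarises probe sets. Neither version nor genome build of that step is stated in the labels. Array medians lay between 6.01 and 6.12. Precision is limited by the number of arrays.

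Of 35556 probe sets, the annotation pairs 21789 with 1 gene symbol, 1621 with several and 12146 with none. Those with 1 symbol gave 19938 genes, with symbols updated through the Entrez ID where RefSeq held it (21698 probe sets) and kept otherwise. For the 999 genes with several probe sets the one with the highest mean was used. Of 77 called genes with several probe sets, 7 had a probe set of the opposite sign, and none of these is named. Dim genes were kept.

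One limma fit (3.58.1 in R 4.3.3, lmFit and eBayes) held 6 group means over 11 arrays, with 5 residual degrees of freedom. The contrast was DN3 minus ETP, two-sided, adjusted by Benjamini-Hochberg over the 19938 genes and called at adjusted p under 0.05. Folds come from the difference of means. The script was tested on simulated data. Tables and figures were made with Python 3.11.15, pandas 2.3.3 and matplotlib 3.10.9.

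The 43 gene lists were written from general knowledge of early T cell development. The comparison and the lists were chosen with earlier results of these data known, so a list's count is no independent evidence. Some genes stand in several lists. Genes lacking their own probe set were not analysed here. Named were the 20 highest and 20 lowest called genes without overlap between arrays (leaving out predicted genes, receptor segments, histones, olfactory and small RNA genes), up to 6 called members per list and direction, up to 2 members not called, cell type markers and members of neighbour runs. Bcl2l1, Btla, Cblb, Cd33, Cd9, Cebpa, Dgka, Erg, Etv6, Grap2, Gzmb, Il4ra, Lag3, Lat, Myc, Mycn, Nkg7, Nrarp, Prkcq, Prtn3, Runx1, S100a10, Spi1, Zap70, Mir142, Mir363, Trdv2-2 and Trgv1, outside that rule, and the promoters shown except that of Ptcra, were chosen after their values were seen. The promoters of Mpo and Ctsg were also chosen for holding GAGGAAG. Sequences and neighbours come from RefSeq's tables (GRCm38.p6). The alternatives were 2 filters on dim genes, renormalization, centring, the mean of probe sets, a trended robust prior, array weights, a replicate block, fits of fewer arrays, a threshold of 0.01 and leaving out each array.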

Additional observations from a re-analysis of the deposited data

How the results depend on the processing

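The count of 1310 called genes became 2030 with limma's array weights, 781 at adjusted p under 0.01, and 695 to 849 when an array of DN3 or ETP was left out, where the fit gives the lone array the spread of the remaining groups. The cause of the larger count with array weights was not tested. It lay between 1097 and 1386 under the other alternatives, and the share of higher genes was 46.2% with arrays centred on their medians against 40.8%. Of the 1310, 597 were called under all 4 omissions, 219 higher and 378 lower, and of the 594 at 2-fold or more, 489 were. The replicate number as a block gave 1285 genes, and 594 at 2-fold or more. The labels state no pairing, so the numbers were not taken to pair the arrays. Same-numbered ETP and DN3 arrays deviated together with r of 0.085 across genes. Over all pairs of populations with replicates, r lay between -0.258 and 0.283. Such a correlation cannot exclude a pairing or a shared batch. Without the block 262 list genes were called, and 258 with it. Left out in turn, the arrays gave 181 to 203 called list genes. Of 385 named genes none turned its direction under the 14 alternatives that held all of them, nor did any of the 282 and 344 left by the 2 filters on dim genes, and 50 to 73 lost their call without 1 of the 4 arrays. For called genes the direction was fixed in advance when 1 array was left out, since their DN3 and ETP arrays did not overlap. It was also fixed for all genes where an alternative changed only the spread or the threshold. The median DN2 position was 36.1% to 40.4% for genes higher and 36.5% to 41.3% for genes lower under 5 alternatives. Genes near background are measured with compressed folds, and 3170 genes had an unadjusted p under 0.05.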

Other observations

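Of 9 measured segments of the T cell receptor loci, which the naming rule left out, 2 were higher in DN3, none was lower and 7 were not called. Over all genes 2.68% were higher and 3.89% lower. Trgv1, a variable segment of the gamma chain locus, had 11.54 and 11.62 in DN3, against 7.15 and 7.53 in ETP (18.9-fold, adjusted p = 2.94e-07, limma), and 11.40 on the DN2 array. Trdv2-2, a variable segment of the delta chain locus, had 7.90 and 7.24 in DN3 and 4.73 and 5.04 in ETP (6.41-fold, adjusted p = 2.13e-05), and 7.22 at DN2. In both segments the DN2 array stood near the DN3 arrays. Such probe sets measure transcripts of the locus, whether rearranged or not.

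Of 302 genes of microRNAs measured on these arrays 1 was higher and 1 lower in DN3, against 2.68% and 3.89% of all genes. Mir363, in a cluster on the X chromosome, had 7.11 and 7.12 in DN3, against 4.95 and 3.85 in ETP (6.56-fold, adjusted p = 0.000112), and 6.69 at DN2, and was picked after its value was seen. The mature miR-363-3p (RefSeq, GRCm38.p6, chrX:52741697-52741718, minus strand) is shown with its seed, bases 2 to 8, in capitals.
mmu-miR-363-3p: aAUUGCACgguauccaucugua
Mir142, a microRNA gene of blood cells, had 4.78 and 4.40 in DN3 and 6.68 and 6.17 in ETP (3.55-fold lower, adjusted p = 0.0161), a call lost without DN3 replicate 1, DN3 replicate 2 or ETP replicate 1. These probe sets measure the precursor region, not the mature microRNA.

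Probe sets without a gene symbol held fewer calls. In a fit of all 35556 probe sets, in which 2.97% were called, 66 of the 12146 without a symbol were higher and 103 lower in DN3 (1.39% called). Of the 1621 with several symbols 17 were higher and 41 lower (3.58% called).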
